A study of Mus musculus with 4 samples.

Results

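The collagen chain genes are the 44 genes, of 19465 measured, whose symbol is Col, a number, the letter a and a further number. All genes that fit this spelling were taken, with no use of their measured values. The transcripts were counted in 4 sections of 2 BALB/c mice, 1 section of the primary tumor (PT) and 1 of the lung from each animal, so that n = 2 sections per tissue and both tissues share their animals. Each mouse had received 100000 cells of 4T1, a mammary carcinoma line of the same strain that spreads to the lung, in the mammary fat pad at 8 weeks of age and was sacrificed 28 days later. Neither sections of animals without tumor cells nor treated groups enter the comparisons, so every lung section here comes from a tumor-bearing animal. Visium places a fixed tissue section on an array of barcoded spots, where ligated probe pairs for each gene are captured and counted by unique molecular identifiers (UMIs). Each spot covers a patch of tissue and may pool RNA from several neighboring cells. Because a probe assay does not count along the length of a transcript, an order between genes is an order of captured UMIs.

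Collagens are proteins of 3 chains wound into a triple helix, and each chain has its own gene. Fibrillar chains (types I, II, III, V, XI, XXIV and XXVII) build the banded fibrils that give connective tissue its tensile strength. Type IV chains form the sheet-like network of basement membranes, the thin layers under epithelium and around vessels, where Col4a1 and Col4a2 make the common network and Col4a3, Col4a4 and Col4a5 a network that is restricted to places such as the alveolus and the kidney glomerulus. Other collagens decorate fibrils (the FACIT group), form beaded filaments (type VI), span the cell membrane (XIII, XVII, XXIII), tie basement membranes to the tissue below (VII) or lie in the basement membrane zone (XV, XVIII). The 44 genes were divided into 11 fibrillar chains, 10 basement membrane chains, of which 6 are type IV, and 23 other chains. The other chains comprise 7 beaded filament and related, 9 FACIT, 3 short chain and 4 transmembrane and remaining chains.

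The kept spots, those with more than 200 detected genes, numbered 1697 to 2780 per section and held 10890154 to 30240176 UMIs. The background was read from 1140 olfactory and vomeronasal receptor genes, which these tissues are not known to use. Their 95th percentile was 1.70 CPM (UMIs per 1000000 UMIs of the section) in the PT of mouse A, 19.3 CPM in the PT of mouse B, 0.539 CPM in the lung of mouse A and 0.397 CPM in the lung of mouse B. The PT of mouse B therefore stood apart, and a chain below 19.3 CPM there could not be told from this background. Alveolar type 2 cell markers, 6 genes, summed to 4.43 and 34.0 CPM in the PT sections and to 11812 and 6791 CPM in the lung sections, in the direction of the labels. The 9 markers of 4T1 cells found in the files summed to 4923 and 5803 CPM in the PT sections, 137 CPM in the lung of mouse A and 1414 CPM in the lung of mouse B, so the lungs differed in their tumor content. Between 1458 and 2030 spot barcodes were shared by each pair of sections, since a barcode names a position on the array and not a cell.

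Chains above the receptor percentile numbered 24 in the PT of mouse A, 17 in the PT of mouse B and 36 in each lung section, of 44. Of all genes, 60.7%, 41.9%, 72.2% and 73.1% lay above it in the PT of mouse A, the PT of mouse B, the lung of mouse A and the lung of mouse B. The same 17 chains passed in all 4 sections: Col1a1, Col1a2, Col3a1, Col5a1, Col5a2 and Col5a3 among the fibrillar chains, Col4a1, Col4a2, Col4a5, Col7a1 and Col18a1 among those of basement membranes, and Col6a1, Col6a2, Col6a3, Col14a1, Col16a1 and Col8a1 among the others. Col24a1, Col9a1, Col22a1 and Col26a1 passed in no section. Chains that reached 20 CPM in a section numbered 23, and the other 21 ranged from 0 to 14.8 CPM. Cartilage chains were among the low ones, with Col2a1 at 0.81 to 4.59 CPM and Col10a1 at 0.18 to 8.36 CPM, and the highest value of both came from the PT of mouse B with its higher background. Counts of 0 were found for Col11a1, Col24a1 and Col17a1 in the lung of mouse A, which allow up to 0.27 CPM, for Col9a2 and Col19a1 in the PT of mouse B (up to 0.275 CPM) and for Col26a1 in the lung of mouse B (up to 0.0992 CPM). These limits, like all intervals given here, cover counting error only.

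Together the 44 chains took 0.245% and 0.184% of the UMIs of the PT sections of mice A and B and 0.205% and 0.389% of those of the lung sections. The balance between the classes differed between the tissues. Basement membrane chains gave 1034 and 844 CPM in the PT sections and 979 and 1455 CPM in the lung sections, where the tissues overlapped. On TMM-adjusted library sizes they did not, with 972 and 723 CPM in PT and 1204 and 1469 CPM in lung. Fibrillar chains gave 746 and 378 CPM in the PT sections and 771 and 1918 CPM in the lung sections, the highest value being that of the lung of mouse B. The remaining chains were higher in both PT sections, with 667 and 618 CPM, than in the lung sections, with 302 and 521 CPM. On TMM-adjusted sizes the gap between the PT and the lung of mouse B nearly closed, at 529 and 526 CPM. Within collagen, these chains made up 27.2% and 33.6% of the UMIs in the PT sections but 14.7% and 13.4% in the lung sections. An exact permutation test of 2 against 2 sections cannot give a p-value below 0.05, so the class levels are given without a test.

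**Figure D1:**
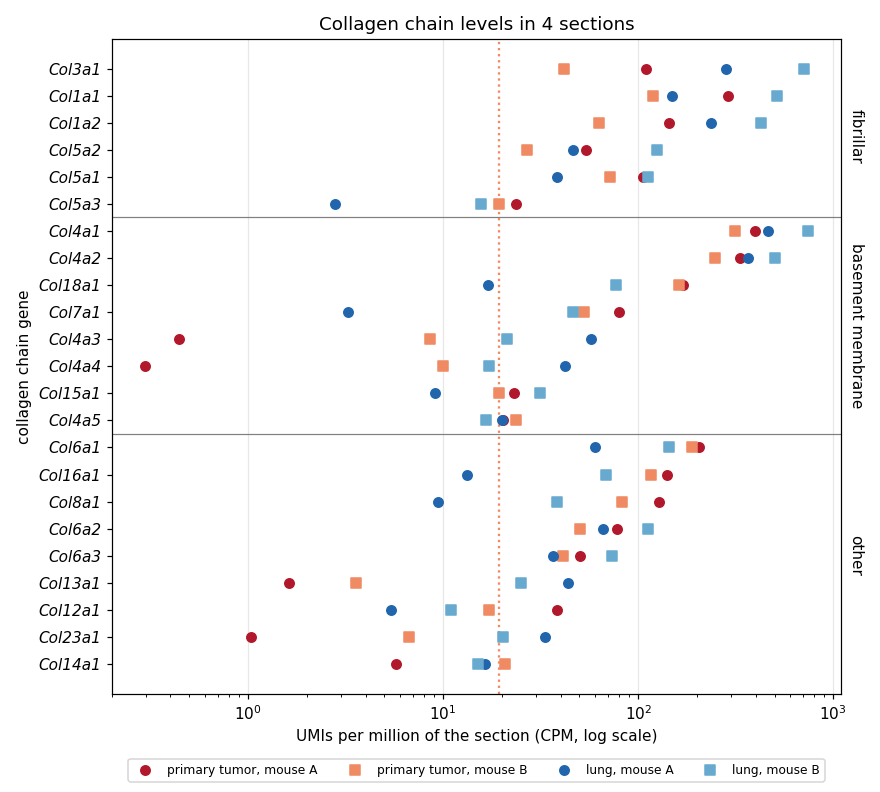
Levels of the 23 collagen chains with at least 20 CPM in a section, in CPM on a log scale. Points are single sections (red, PT; blue, lung; circles, mouse A; squares, mouse B), grey lines divide fibrillar, basement membrane and other chains, and the dotted line is the 95th percentile of the receptor genes in the PT of mouse B (19.3 CPM). Col3a1, Col1a2, Col4a1 and Col4a2 lie higher in both lung sections, Col8a1, Col16a1 and Col18a1 higher in both PT sections.

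Lung sections were compared with PT sections gene by gene over the whole table of 15267 genes that passed the filter on low counts, by the quasi-likelihood test of edgeR, with p-values adjusted over all of them after Benjamini and Hochberg. Of the 44 chains, 34 were tested. Higher levels in the lung passed the threshold for 4 chains, Col3a1, Col1a2, Col13a1 and Col23a1, and no chain was called lower. Over all genes 7.46% were called, 6.31% as higher and 1.15% as lower (963 and 176 genes). Among all genes DESeq2 divided its calls otherwise, into 1436 higher and 1208 lower. The median log2 fold change was -0.04 over the 34 chains and -0.00459 over all genes tested. Both tissues of a mouse come from 1 animal, and 11 chains were called when the mouse entered the model as a block, 7 higher and 4 lower in the lung, where 11.9% of all genes were called, 9.17% as higher and 2.73% as lower. The blocked model leaves a single residual degree of freedom per gene, as does the tissue model with 1 section left out. The p-values of these fits rest mainly on the spread over all genes. They are therefore not of the same form as those of the tissue model on all 4 sections.

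Among the fibrillar chains, Col3a1 and Col1a2 were called higher in the lung, and Col1a1 and the type V chains were not. Col3a1, the chain of type III collagen in distensible tissue such as vessel wall and lung, was measured at 110 and 41.9 CPM in the PT sections and at 282 and 707 CPM in the lung sections. The tissues did not overlap, and the log2 fold change was 2.92 ± 0.60 (SE; adjusted p = 0.0212, edgeR, n = 2 per tissue). Col1a2, the second chain of type I collagen, was at 144 and 63.2 CPM in PT and at 236 and 427 CPM in lung, again without overlap. Its log2 fold change of 1.92 ± 0.50 had an adjusted p of 0.0499 in edgeR, at the edge of the threshold. Col1a1, the other chain of the same protein, was at 290 and 119 CPM in PT and at 149 and 515 CPM in lung. Its tissues overlapped, and the log2 fold change of 0.90 ± 0.60 did not pass (adjusted p = 0.416, edgeR). It moved with single sections, to 1.996 and a call without the PT of mouse A (adjusted p = 0.0418), to 0.30 without that of mouse B, 1.60 without the lung of mouse A and 0.12 without that of mouse B. Col5a2, a chain of type V collagen, which sits in the core of type I fibrils, was at 53.8 and 26.8 CPM in PT and 46.5 and 124 CPM in lung. It was not called with tissue alone in the model (adjusted p = 0.163, edgeR) and was called with the mouse as a block (log2 fold change 1.30 ± 0.45, adjusted p = 0.0345, edgeR). The tissue model also called it without the PT of mouse A (2.20, adjusted p = 0.0093) or the lung of mouse A (1.90, adjusted p = 0.00162), but not without the PT of mouse B (0.79, adjusted p = 0.607) or the lung of mouse B (0.80, adjusted p = 0.395). Col5a1 overlapped between tissues, with 106 and 71.8 CPM in PT against 38.6 and 112 CPM in lung. Col5a3 was lower in both lungs, with 23.5 and 19.4 CPM in PT against 2.79 and 15.6 CPM in lung, and was not called. Its value in the PT of mouse B was barely above the receptor percentile there.

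The call for Col3a1 was lost without the PT of mouse B (log2 fold change 2.29, adjusted p = 0.0791, edgeR), as was that for Col1a2 (1.34, adjusted p = 0.353). Without each other section both were called, with Col3a1 at 2.47 to 4.10 and Col1a2 at 1.77 to 2.96, the highest values of both being those without the PT of mouse A. Between the tissues, markers of other cells moved with these chains. The 9 fibroblast markers summed to 296 and 242 CPM in the PT sections and 798 and 492 CPM in the lungs, and the 9 smooth muscle markers to 216 and 288 CPM against 667 and 502 CPM. Between the lungs the order turned, with both marker sums higher in mouse A and both Col3a1 and Col1a2 higher in mouse B. No marker of either list was at 0 in any section. Of the fibroblast markers, 8 and 2 were above the receptor percentile in the PT of mice A and B, and all 9 in each lung. Of the smooth muscle markers, 7 and 2 were above it in these PT sections, and all 9 in each lung. Their part in the differences was not tested, and in sections of whole tissue a smaller number of cells of a type cannot be told apart from less RNA per cell.

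Of 9 basement membrane chains tested none was called with tissue alone in the model, and their median log2 fold change was 0.15. Col4a1 and Col4a2, the chains of the common type IV network, were the most captured collagens of both PT sections and the lung of mouse A. Col4a1 was at 396 and 314 CPM in PT and 461 and 743 CPM in lung, and Col4a2 at 332 and 249 CPM in PT and 367 and 501 CPM in lung. Both chains were higher in both lungs, but neither was called (log2 fold change 1.03 ± 0.43 and 0.85 ± 0.41, adjusted p = 0.191 and 0.247, edgeR). Col4a3 and Col4a4, chains of the restricted network, gave 6 and 4 UMIs in the whole PT section of mouse A. Col4a3 was at 0.443 and 8.54 CPM in PT and 57.5 and 21.2 CPM in lung, and Col4a4 at 0.296 and 10.0 CPM in PT and 42.3 and 17.1 CPM in lung. The values in the PT of mouse B lie under the receptor percentile there, so the PT levels of this pair are background or close to it. With the mouse as a block both were called higher in the lung, by 4.10 ± 0.70 and 3.80 ± 0.81 on the log2 scale (adjusted p = 1.71e-07 and 7.32e-05, edgeR). With tissue alone in the model Col4a3 had an adjusted p of 0.0729 and Col4a4 of 0.155. That model gave 2.69 and 2.19 without the lung of mouse A, where neither was called (adjusted p = 0.0617 and 0.372, edgeR). It called both without any other 1 section, at 2.89 and 2.25 without the PT of mouse A, 4.44 and 3.80 without the lung of mouse B and 6.66 and 6.83 without the PT of mouse B. The third chain of that network, Col4a5, was similar in both tissues, with 20.2 and 23.5 CPM in PT and 20.1 and 16.6 CPM in lung.

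The alveolar type 1 markers, 6 genes of the flat cells that line the alveolus, summed to 26.2 and 50.3 CPM in the PT sections and to 2356 and 1081 CPM in the lungs, with no marker at 0. The 11 endothelial markers summed to 344 and 264 CPM in PT and to 2690 and 1328 CPM in lung, also with no marker at 0. Of the type 1 markers 3 and 0 were above the receptor percentile in the PT of mice A and B, and all 6 in each lung. Of the endothelial markers 11 and 5 were above it in PT, and all 11 in each lung. In both lists the lung of mouse A was the higher lung, as it was for Col4a3 and Col4a4 but not for Col4a1 and Col4a2. Their part in the levels of the type IV chains was not tested.

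Col18a1, the collagen whose end fragment is endostatin, was at 169 and 163 CPM in PT and at 17.1 and 77.1 CPM in lung. Col7a1, the chain of the anchoring fibrils under stratified epithelium, was at 80.03 and 53.0 CPM in PT and at 3.24 and 46.4 CPM in lung. Both were lower in both lungs. With tissue alone in the model neither was called (adjusted p = 0.123 and 0.414, edgeR), and with the mouse as a block both were, at log2 fold changes of -1.88 ± 0.44 and -2.03 ± 0.55 (adjusted p = 0.00032 and 0.00325, edgeR). Without the lung of mouse A the tissue model gave -0.78 and -0.22, and without that of mouse B -2.65 and -3.75. Without the PT of mouse A it gave -1.28 and -0.62, and without that of mouse B -1.74 and -1.61. Col15a1, the nearest relative of Col18a1, overlapped between the tissues, with 23.1 and 19.3 CPM in PT and 9.08 and 31.2 CPM in lung. Its value in the PT of mouse B was just under the receptor percentile there. Col17a1, a membrane collagen of the hemidesmosomes of basal epidermal cells, passed the receptor percentile in 1 section alone, with 143 UMIs (10.6 CPM) in the PT of mouse A against 1, 0 and 5 UMIs in the other sections. In that section it was at 37.5 CPM in spots whose share of keratinocyte markers was above the 80th percentile and at 0.826 CPM in spots at or below the median. The 9 keratinocyte markers summed to 183 CPM in that section, with no marker at 0, and to 78.8, 10.3 and 21.7 CPM in the PT of mouse B and the lungs of mice A and B. Of the 9, 8 were above the receptor percentile in that section and 1, 1 and 4 in the others.

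Among the other chains, the summed FACIT chains were at 198 and 190.4 CPM in PT and 43.0 and 99.5 CPM in lung, and the summed transmembrane and remaining chains at 2.88 and 17.3 CPM against 77.9 and 45.4 CPM. Col13a1, a membrane-spanning collagen at sites of cell adhesion, was at 1.63 and 3.58 CPM in PT and at 43.7 and 25.0 CPM in lung. It had the highest fold change of the chains tested, 4.08 ± 0.59 on the log2 scale (adjusted p = 0.00652, edgeR), and remained called without any 1 of the 4 sections. Col23a1, a relative with the same arrangement in the membrane, was at 1.03 and 6.70 CPM in PT and at 33.4 and 20.2 CPM in lung (log2 fold change 3.17 ± 0.79, adjusted p = 0.0411, edgeR). Without the lung of mouse A its adjusted p was 0.0716. Both chains were under the receptor percentile in both PT sections, so these fold changes are taken over background. Without the PT of mouse B that of Col23a1 was 4.88.

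Col8a1, a short chain collagen of vessel walls, was at 128 and 82.2 CPM in PT and at 9.44 and 38.3 CPM in lung. Col16a1, a FACIT chain, was at 141 and 117 CPM in PT and at 13.2 and 68.7 CPM in lung. Both were lower in both lungs and were called with the mouse as a block (log2 fold change -2.11 ± 0.46 and -1.78 ± 0.45, adjusted p = 0.000112 and 0.0012, edgeR), but not with tissue alone in the model (adjusted p = 0.0708 and 0.18). In the tissue model without the lung of mouse A the values were -1.16 and -0.59, and without that of mouse B -2.87 and -2.66. Without the PT of mouse A they were -1.27 and -1.01, and without that of mouse B -2.31 and -1.68. Col12a1, another FACIT chain, was at 38.5 and 17.3 CPM in PT and 5.39 and 11.01 CPM in lung and was called in neither model. Of type VI collagen, which forms a beaded network around cells, and its relatives, none of 6 chains tested was called or had an unadjusted p under 0.05. In the same edgeR fit 13 of the 34 chains and 23.2% of all genes had such a p. Col6a1 had less CPM in both lungs (205 and 190 CPM in PT, 60.0 and 143 CPM in lung; adjusted p = 0.341, edgeR). Col6a2 (78.0 and 50.2 CPM against 65.7 and 113 CPM) and Col6a3 (50.5 and 41.3 CPM against 36.6 and 73.8 CPM) overlapped in CPM, and on TMM-adjusted sizes Col6a2 did not. Col14a1, a FACIT chain of mature connective tissue, overlapped as well, with 5.76 and 20.7 CPM in PT and 16.5 and 15.01 CPM in lung. This overlap rests on the PT of mouse B, where the chain was just above the receptor percentile of 19.3 CPM.

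Counted in CPM over the 34 chains tested, 8 were higher in both lungs than in both PT sections and 12 were lower in both, where 21.3% and 37.8% of all genes tested were. These counts take no TMM factor, which was 1.06 and 1.17 in the PT and 0.813 and 0.991 in the lung of mice A and B. On TMM-adjusted sizes Col5a2 and Col6a2 were also higher in both lungs, and Col4a5 and Col11a2 were no longer lower in both. The 8 were Col3a1, Col1a2, the 4 chains Col4a1 to Col4a4, Col13a1 and Col23a1. Of the 12, Col9a1, Col9a3, Col12a1, Col11a2 and Col4a6 were under the receptor percentile in the PT of mouse B. Their level there cannot be told from background. The rest were Col5a3, Col6a1, Col7a1, Col8a1, Col16a1, Col18a1 and Col4a5, the last of them similar in both tissues. DESeq2 called 9 of the 34, where it called 17.3% of all genes (9.41% as higher and 7.91% as lower). These were Col3a1, Col1a2, Col4a3, Col4a4, Col13a1 and Col23a1 as higher and Col18a1, Col8a1 and Col9a1 as lower, although the 14.8 CPM of Col9a1 in the PT of mouse B is under the receptor percentile. When the lung was restricted to the spots with the highest share of tumor markers, none of 35 chains was called by edgeR and 4 had an unadjusted p under 0.05, where 3 of 14400 genes (0.0208%) were called and 10.3% had such a p. In that comparison the log2 fold changes were 3.03 for Col3a1, 2.04 for Col1a2, 3.35 for Col13a1 and 2.11 for Col23a1. Of the 12 chains lower in both lungs, 4 were called so with the mouse as a block. Their values here were -0.93 for Col18a1, -0.51 for Col7a1, -0.84 for Col16a1 and -1.34 for Col8a1. Adjusted p-values of these 8 chains were 0.309 to 0.894. The other chains lower in both lungs had negative values too, from -3.58 for Col9a1 to -0.21 for Col4a5.

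**Figure D2:**
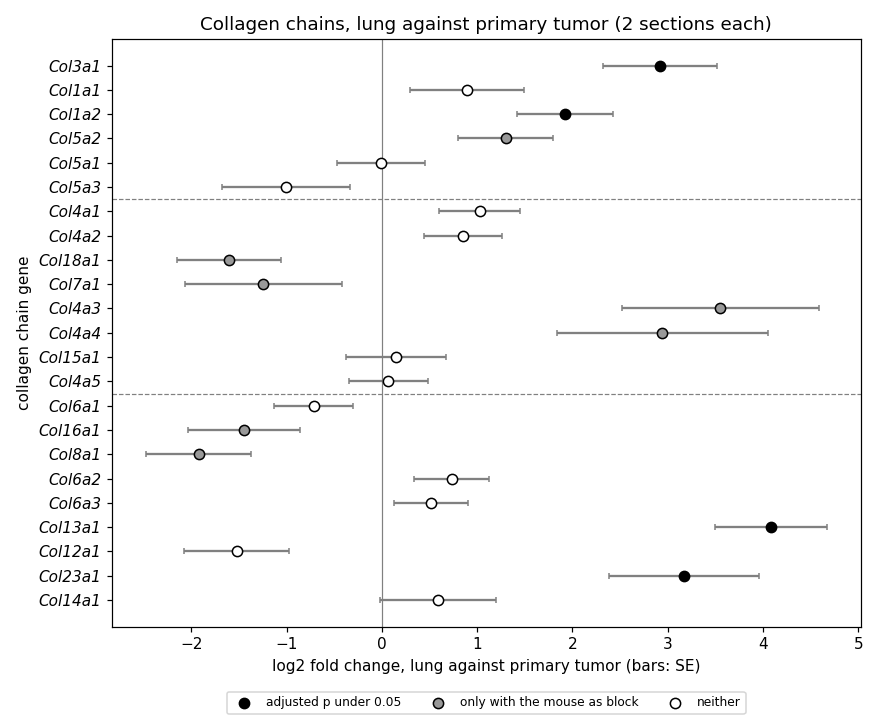
Log2 fold change of lung against PT, with its SE, for the 23 chains with at least 20 CPM in a section (edgeR, 2 sections per tissue). Black points passed an adjusted p of 0.05 in the model of tissue alone, grey points of these 2 models only in that with the mouse as a block, and white points in neither. Col3a1, Col1a2, Col13a1 and Col23a1 are the black points, between 1.92 and 4.08.

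Position and upstream sequence are shown for 5 chains chosen after their values were seen. Col3a1, Col13a1 and Col23a1 were called higher in the lung, and Col7a1 and Col8a1 had more CPM in both PT sections. The stretches are the 250 bases before the start of each gene, from RefSeq on the build GRCm38.p6, written 5′ to 3′ on the strand of the gene. None overlaps an annotated exon. They lie at chr1:45311288-45311537 on the plus strand (Col3a1), chr10:61979109-61979358 on the minus strand (Col13a1), chr11:51289670-51289919 on the plus strand (Col23a1), chr9:108953336-108953585 on the plus strand (Col7a1) and chr16:57754738-57754987 on the minus strand (Col8a1). Capitals mark each match, on either strand, to the CCAAT box (CCAAT), the GC box (GGGCGG), the AP-1 site (TGANTCA) or the TATA box (TATAAA), and no match overlaps one of another motif.
Col3a1: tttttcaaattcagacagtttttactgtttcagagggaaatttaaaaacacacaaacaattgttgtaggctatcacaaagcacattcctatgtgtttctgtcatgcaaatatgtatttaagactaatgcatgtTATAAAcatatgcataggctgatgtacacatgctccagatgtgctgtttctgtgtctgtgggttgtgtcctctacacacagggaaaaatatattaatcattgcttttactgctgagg
Col13a1: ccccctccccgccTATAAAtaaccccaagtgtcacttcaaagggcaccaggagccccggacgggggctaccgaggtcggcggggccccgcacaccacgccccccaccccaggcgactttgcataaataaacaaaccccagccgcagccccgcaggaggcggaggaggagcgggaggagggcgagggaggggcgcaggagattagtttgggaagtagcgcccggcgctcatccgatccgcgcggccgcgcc
Col23a1: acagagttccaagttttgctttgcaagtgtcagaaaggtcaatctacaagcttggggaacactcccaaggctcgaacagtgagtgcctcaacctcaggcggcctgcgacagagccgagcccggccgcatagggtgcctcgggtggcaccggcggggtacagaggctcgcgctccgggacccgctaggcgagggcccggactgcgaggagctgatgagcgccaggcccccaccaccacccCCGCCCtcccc
Col7a1: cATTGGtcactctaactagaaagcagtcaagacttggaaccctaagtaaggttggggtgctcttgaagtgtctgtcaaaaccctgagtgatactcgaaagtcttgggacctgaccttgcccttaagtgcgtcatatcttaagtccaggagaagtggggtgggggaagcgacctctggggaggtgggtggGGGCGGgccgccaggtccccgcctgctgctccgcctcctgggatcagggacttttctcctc
Col8a1: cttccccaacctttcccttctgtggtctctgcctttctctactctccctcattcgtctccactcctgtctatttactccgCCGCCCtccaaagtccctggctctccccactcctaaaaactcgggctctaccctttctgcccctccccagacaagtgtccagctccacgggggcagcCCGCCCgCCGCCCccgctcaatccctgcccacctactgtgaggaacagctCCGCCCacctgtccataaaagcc
The stretches of Col3a1 and Col13a1 hold TATAAA once each, which 12.4% of 32851 such stretches of all annotated starts hold. GGGCGG, present in 32.7% of them, occurs 4 times before Col8a1 and once each before Col7a1 and Col23a1. Only Col7a1 holds CCAAT (33.8% of all stretches), and none of the 5 holds TGANTCA (6.75%). A first stretch was found for 35 of the 44 chains, of which 21 hold GGGCGG, 12 CCAAT, 5 TATAAA and 1 TGANTCA. A match is a run of letters and not a shown binding site.

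The type IV genes are arranged in head-to-head pairs, which places the partners' values beside each other. In the gene annotation on mm10, Col4a1 (chr8:11198423-11312826, minus strand) and Col4a2 (chr8:11312805-11449287, plus strand) start 21 bases apart. Col4a3 (chr1:82586921-82722059, plus strand) and Col4a4 (chr1:82448423-82586849, minus strand) start 72 bases apart. The ratio of Col4a1 to Col4a2 was 1.19 and 1.26 in the PT sections and 1.26 and 1.48 in the lungs. The ratio of Col4a3 to Col4a4 in the lungs was 1.36 (95% exact interval 1.20 to 1.53) and 1.24 (1.10 to 1.39). The Col4a1 to Col4a2 ratio was higher in the lung of mouse B (95% exact interval 1.45 to 1.51) than in the PT of mouse A (interval 1.14 to 1.24), beyond counting error, and within the lung of mouse B it went from 1.34 in tumor-poor to 1.62 in tumor-rich spots. The ratio of Col4a3 to Col4a4 rests on the lungs alone, since the pair was near background in PT.

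Ratios between chains that share a protein or a class differed more between the tissues outside the type IV pairs. The ratio of Col1a1 to Col1a2, the chains of type I collagen, was 2.01 and 1.88 in the PT sections and 0.629 and 1.21 in the lung sections. For Col1a1 to Col3a1 the ratios were 2.64 and 2.84 in PT and 0.527 and 0.729 in lung. For Col5a1 to Col5a2 they were 1.96 and 2.68 in PT and 0.83 and 0.902 in lung. Col6a1 to Col6a2 gave 2.63 and 3.78 in PT against 0.912 and 1.27 in lung, and Col18a1 to Col15a1 gave 7.31 and 8.44 against 1.88 and 2.47. The value of 8.44 rests on a Col15a1 level just under the receptor percentile in the PT of mouse B. All 5 ratios were higher in both PT sections than in both lungs, and in each the counting intervals of PT and lung did not overlap. A ratio shows unequal levels of the chains and not which of them differed.

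**Figure D3:**
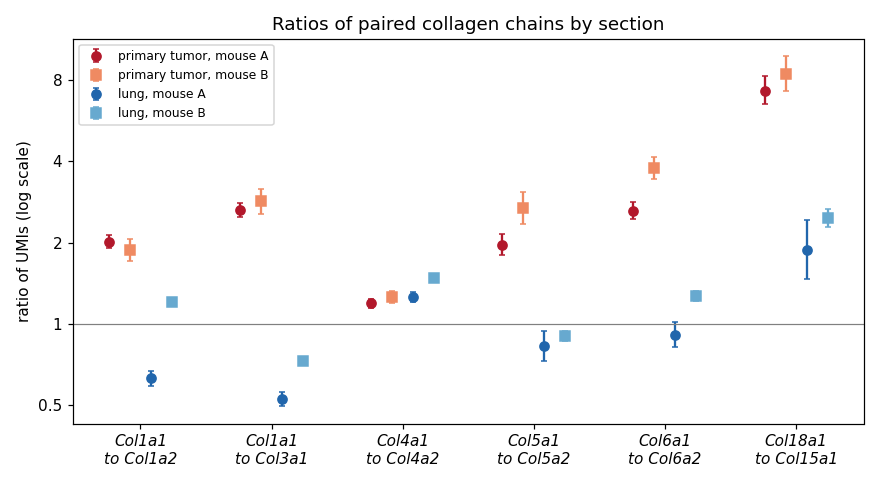
Ratios of UMIs between paired collagen chains in each section, on a log scale (red, PT; blue, lung; circles, mouse A; squares, mouse B). Bars are 95% exact binomial intervals for counting error. Of the 6 pairs plotted, all but Col4a1 to Col4a2, at 1.19 to 1.48, are higher in both PT sections than in both lungs.

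Within the lungs, spots rich in tumor markers were compared with spots poor in them. Spots above the 80th percentile of their section in the share of UMIs on the 9 tumor markers formed the high class (340 and 556 spots of mice A and B), those at or below the median the low class (967 and 1390 spots), and the rest a middle class. The tumor markers summed to 505 CPM in the high spots of mouse A and 2743 CPM in those of mouse B, against 0 and 356 CPM in the low spots and 4923 and 5803 CPM in the whole PT sections, so the high class of mouse A held few tumor marker UMIs. No chain was called of the 31 tested by edgeR with the mouse as a block, where 0 of 13223 genes (0%) were called. At an unadjusted p under 0.05 there were 13 chains, against 21.1% of all genes (2788). DESeq2 called 4 chains, all higher in tumor-rich spots, where it called 2.42% of all genes (320), 1.38% as higher. Without the filter on low counts edgeR called 9 of 43 chains, 5 higher and 4 lower, where it called 8.94% of all genes, 4.18% as higher and 4.76% as lower. The median log2 fold change was 0.53 over the 31 chains and 0.02 over all genes tested. In both lungs 19 of the 31 had more CPM in the tumor-rich spots, where 46.4% of all genes did, and 8 had less, where 29.8% did.

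The 4 chains called by DESeq2 were Col7a1, Col18a1, Col15a1 and Col16a1. From low to middle to high, Col7a1 was at 1.54, 2.87 and 8.46 CPM in the lung of mouse A and at 14.1, 45.6 and 83.3 CPM in that of mouse B. Col18a1 was at 9.56, 14.3 and 41.8 CPM and at 33.7, 74.3 and 129 CPM. Both were higher at each step in both animals, and their values in the tumor-rich spots of mouse B, 83.3 and 129 CPM, are near the PT levels of 53.0 to 80.03 and 163 to 169 CPM given above. The first step of Col7a1 in mouse A rests on 9 UMIs in each class. In edgeR the log2 fold change of high against low was 2.41 ± 0.34 for Col7a1 and 1.91 ± 0.27 for Col18a1, each with an adjusted p of 0.105. DESeq2 gave adjusted p-values of 0.00887 and 0.0125. Col15a1 was at 4.61, 11.5 and 17.9 CPM in mouse A and at 12.5, 31.2 and 52.2 CPM in mouse B. Col16a1 was at 8.37, 9.56 and 32.0 CPM and at 30.3, 71.7 and 109 CPM. Their log2 fold changes were 1.90 ± 0.34 and 1.77 ± 0.27 (adjusted p = 0.113 and 0.105, edgeR; 0.0409 and 0.0275, DESeq2). Col8a1 had the same order of steps, with 7.17, 8.28 and 17.4 CPM and 15.1, 39.0 and 63.6 CPM, and was called by edgeR only without the filter on low counts, and not by DESeq2.

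Col4a3, Col4a4, Col13a1 and Col23a1 had the opposite order, whereas Col1a2 and Col3a1, also higher in the lung than in PT, did not. Col4a3 was at 63.0, 54.1 and 47.5 CPM from low to high in mouse A and at 35.0, 21.1 and 5.93 CPM in mouse B. Col13a1 was at 45.8, 41.7 and 40.9 CPM and at 37.6, 26.1 and 9.88 CPM, and Col23a1 at 36.7, 32.8 and 25.4 CPM and at 33.9, 19.0 and 6.24 CPM. The steps were shallow in mouse A and steep in mouse B. The log2 fold changes of Col4a3, Col4a4, Col13a1 and Col23a1 were -1.57 ± 0.53, -1.67 ± 0.53, -1.16 ± 0.46 and -1.61 ± 0.50, with adjusted p-values of 0.22 to 0.227 in edgeR.

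Of the 23 chains with at least 20 CPM in a section, 11 had higher values at both steps in both lungs, where 28.5% of the 9511 such genes did, and 4 had lower values at both steps, where 13.2% did. Beside those already named, the 11 included Col1a1, Col1a2, Col5a2, Col5a3, Col6a1 and Col6a3. These orders are of CPM and take no account of counting error. In the lung of mouse A, Col5a3 had 11, 10 and 10 UMIs from low to high and Col7a1 had 9, 9 and 18. Col1a1 was at 119, 152 and 225 CPM in mouse A and at 285, 566 and 720 CPM in mouse B. Col4a1 and Col4a2 had log2 fold changes of 0.11 and -0.13, with high against low at 531 against 437 CPM and 389 against 370 CPM in mouse A and 763 against 681 CPM and 472 against 509 CPM in mouse B. The ratio of Col1a1 to Col1a2 was 0.607, 0.623 and 0.67 over the steps in mouse A and 0.872, 1.23 and 1.43 in mouse B, so it moved towards the PT ratio in mouse B, while in mouse A the counting intervals of the lowest and highest step overlapped. The ratio of Col1a1 to Col3a1 went in opposite directions, from 0.595 to 0.439 between the low and high spots of mouse A and from 0.483 to 1.013 in mouse B, without overlap of the counting intervals in either animal. This difference between 1 lung and the other has no replicate.

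In the lung of mouse B the median depth was 16672.5 UMIs in the high spots and 7561 in the low spots, and in that of mouse A 5582.5 and 6010. Alveolar type 1 markers summed to 332 CPM in the high and 1826 CPM in the low spots of mouse B and to 2053 and 2441 CPM in mouse A. Neutrophil markers, 5 genes, summed to 5103 and 57630 CPM in mouse B and to 56885 and 80756 CPM in mouse A, and fibroblast markers to 256 and 733 CPM and to 778 and 782 CPM. The part of depth and of these cells in the chain levels was not tested.

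**Figure D4:**
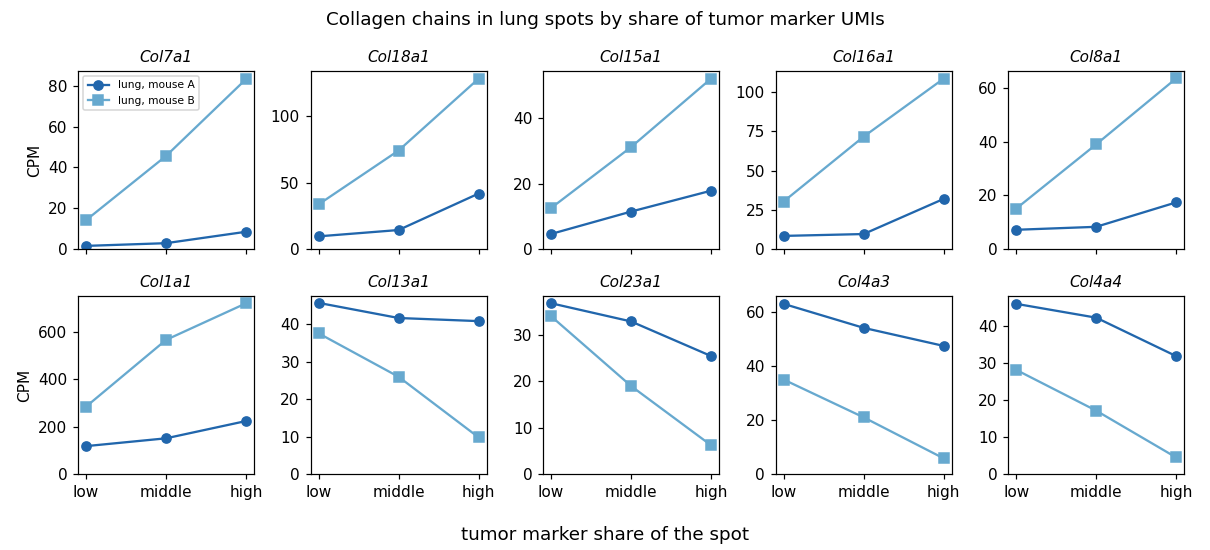
Levels of 10 collagen chains in lung spots grouped by their share of tumor marker UMIs (low, middle, high), in CPM from 0, 1 point for each class and animal (circles, mouse A; squares, mouse B). The chains of the upper row and Col1a1 are higher at each step, for example Col7a1 from 14.1 to 83.3 CPM in mouse B, and the other 4 lower, for example Col4a3 from 35.0 to 5.93 CPM.

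Fibroblasts are the main source of fibrillar collagen in connective tissue, so spots with a high and a low share of 9 fibroblast markers, none of them a collagen, were compared in all 4 sections with the section as a block. In the PT of mouse B 2 of the 9 were above the receptor percentile, so its spot classes rest in part on background. Of 28 chains tested, none was called by edgeR, as none of 12319 genes (0%) was. At an unadjusted p under 0.05 there were 3, Col3a1, Col1a2 and Col6a2, where 6.24% of all genes were (769). DESeq2 called Col3a1 alone, where it called 0.13% of all genes (16). Without the lung of mouse B edgeR called 4 chains, Col3a1, Col1a2, Col6a2 and Col1a1, and 49 of 12690 genes. Col3a1 was at 159 against 91.3 CPM in high against low spots of the PT of mouse A and at 48.1 against 35.7 CPM in the PT of mouse B. In the lungs it was at 593 against 195 CPM in mouse A and 1207 against 615 CPM in mouse B. It was higher in the fibroblast-rich spots of every section, with a log2 fold change of 0.99 ± 0.18 (adjusted p = 0.626, edgeR; 0.00256, DESeq2). Col1a2 and Col6a2 were also higher in all 4 sections, with log2 fold changes of 0.81 ± 0.20 and 0.74 ± 0.14 (adjusted p = 0.721 and 0.626, edgeR). In all, 4 of the 28 chains were higher in every section, Col23a1 being the other, where 6.08% of all genes tested were, and none was lower in every section (7.52% of all genes). Col23a1 was under the receptor percentile in both PT sections, so its difference there cannot be told from background. Col1a1 was higher in the lung of mouse A (326 against 101 CPM) and the PT of mouse A (392 against 246 CPM), but not in the PT of mouse B (72.8 against 74.6 CPM) or the lung of mouse B (547 against 577 CPM).

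Other markers moved with these classes in the lungs. Smooth muscle markers summed to 1625 CPM in the fibroblast-rich and 398 CPM in the fibroblast-poor spots of the lung of mouse A and to 944 and 436 CPM in mouse B, and cardiac markers, 6 genes, to 993 and 156 CPM and to 1900 and 258 CPM. In the PT of mouse A the median depth was 3848.5 UMIs in the rich and 649 UMIs in the poor spots. Their part was not tested. Grouped by smooth muscle markers instead, lung spots differed more in Col3a1, with 669 against 158 CPM in mouse A and 1149 against 557 CPM in mouse B. Col14a1 differed by smooth muscle markers in both lungs too, with 43.9 against 6.08 CPM and 31.1 against 10.5 CPM. Grouped by cardiac markers, Col3a1 was at 506 against 216 CPM and at 1584 against 532 CPM. These groupings are given without a test. The difference between tissues in the effect of the fibroblast class was fitted only after the data were seen. It was called for no chain, and 2 of 28 had an unadjusted p under 0.05 (edgeR interaction term, 0 of all genes called, 5.63% with such a p).

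Endothelial cells lay down type IV collagen on their basement membrane, and spots with a high and a low share of 11 endothelial markers were compared in the same way. In the PT of mouse B 5 of the 11 were above the receptor percentile, so its spot classes rest in part on background. None of 26 chains was called by edgeR, as none of 12357 genes (0%) was, and DESeq2 called none of the chains and 23 of all genes (0.186%). At an unadjusted p under 0.05 edgeR had 3 chains, with 7.05% of all genes (871), and Col4a1 and Col4a2 were higher and Col16a1 was lower. Col4a2 was at 410 against 261 CPM in high against low spots of the PT of mouse A, at 370 against 176 CPM in the PT of mouse B, at 404 against 337 CPM in the lung of mouse A and at 539 against 472 CPM in that of mouse B. It was higher in all 4 sections, and its log2 fold change was 0.63 ± 0.16 (adjusted p = 0.584, edgeR). Col4a1 was higher in both PT sections (461 against 318 CPM and 392 against 248 CPM) and the lung of mouse A (504 against 445 CPM), but not in the lung of mouse B (719 against 747 CPM). Its log2 fold change was 0.42 ± 0.14 with the same adjusted p. Col4a3 was at 65.8 against 47.2 CPM and 37.1 against 12.1 CPM in the lungs. Of the 26 chains, Col4a2 and Col4a5 were higher in every section, where 7.79% of all genes tested were, and none was lower in every section (10.8% of all genes).

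The difference between tissues in the effect of the endothelial class was also fitted only after the data were seen. No chain was called for it, and 10 of 26 had an unadjusted p under 0.05, against 9.31% of all genes (edgeR interaction term). All 10 were negative, that is, the difference of endothelial-rich against endothelial-poor spots was lower in lung than in PT. The lowest unadjusted p-values were those of Col18a1 (-1.40 ± 0.24, adjusted p = 0.36) and Col7a1 (-1.82 ± 0.31, the same adjusted p), followed by Col8a1 (-1.57 ± 0.30, adjusted p = 0.402). In the lung of mouse B the tumor markers summed to 417 CPM in endothelial-rich and 1964 CPM in endothelial-poor spots, and in that of mouse A to 82.9 and 184 CPM. Their part in these differences was not tested.

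The spread of the classes over each section was described next. Among spots with at least 1000 UMIs, the tenth of spots with the most fibrillar CPM held 26.1% and 35.2% of all fibrillar UMIs in the PT of mice A and B and 42.4% and 28.0% in the lungs. For basement membrane chains the shares were 13.8%, 20.4%, 16.03% and 22.8%. Spots were ranked by the same counts, so that a class with fewer UMIs per spot takes a larger share by counting alone, and no order of the classes is read from these shares. Moran's I, which is near 0 when neighboring spots are unrelated and near 1 when they are alike, was 0.365 and 0.0891 for fibrillar chains in the PT sections and 0.425 and 0.656 in the lungs, and 0.157, 0.106, 0.236 and 0.308 for basement membrane chains. After each spot was thinned to 1000 UMIs, it was 0.159, 0.0235, 0.22 and 0.332 for fibrillar chains and 0.0323, 0.0219, 0.0735 and 0.0818 for basement membrane chains. Fibrillar chains had the higher value in 3 sections before and after thinning, and in the PT of mouse B the order of the classes turned. The maps show fibrillar chains in bands and patches of both lungs. By eye the main band of the lung of mouse A was low in type IV chains, which was not measured.

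**Figure D5:**
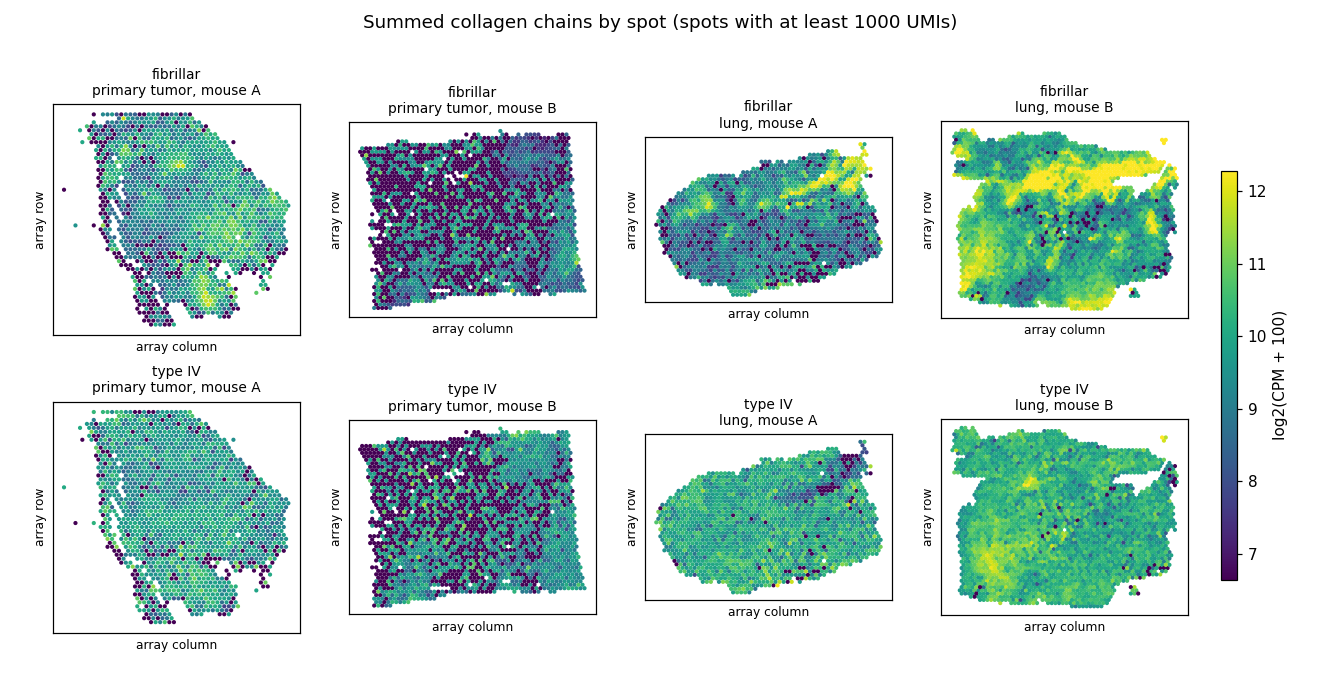
Summed fibrillar (upper row) and type IV (lower row) chains in each spot with at least 1000 UMIs, by array column and row, as log2 of CPM plus 100. Fibrillar chains form bands and patches in the lungs, where Moran's I over neighbors was 0.425 and 0.656, and type IV chains gave 0.269 and 0.29.

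Correlations across spots were low to moderate and are given as descriptions, with no test. Spearman's rho of Col1a1 with Col1a2 was 0.339 and 0.268 in the PT sections and 0.322 and 0.579 in the lungs, over 1604, 2316, 1687 and 2775 spots. Summed fibrillar with summed type IV chains gave 0.109, 0.0645, -0.0759 and 0.168 in the same order, negative in the lung of mouse A alone. Of the marker lists, summed fibrillar chains went with smooth muscle markers in the lungs (0.373 and 0.364) and against neutrophil markers there (-0.414 and -0.545). They are taken over spots that share a library and a depth, and shares of UMIs move against each other by construction. Among 6272 genes with at least 20 CPM in all sections, the 10 that were most like the fibrillar sum in their mean rho over the 4 sections were Igfbp4, Mgp, Mt2, Ctsl, Mmp3, Mt1, Atp2a2, C1qa, C1qc and Tpm1 (mean rho 0.186 to 0.25). Those most like the type IV sum were Cdh5, Fn1, Vash1, Sparc, Cav1, Plvap, Egfl7, Trp53i11, Plxnd1 and Igfbp7 (0.131 to 0.16). Mgp was uneven, with -0.0917 and 0.0557 in the PT sections against 0.498 and 0.518 in the lungs. All genes of the fibrillar list but Ctsl had a lower rho in both PT sections than in both lungs. Tpm1, for example, had 0.0147 and -0.00955 against 0.287 and 0.451. Of the type IV list, Cdh5, an adhesion protein of endothelial cells, was at 0.125 to 0.197 in all 4 sections. Trp53i11 of the same list was at -0.0493 in the lung of mouse A.

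Genes that make or receive collagen were counted in the same comparison of lung with PT. Of 30 genes of collagen synthesis, which modify, fold and trim the chains, 1 was called, where 7.46% of all genes were. P4ha1, a subunit of the prolyl hydroxylase that stabilizes the triple helix, was lower in the lung by a log2 fold change of -1.88 ± 0.39 (adjusted p = 0.023, edgeR), and Plod2, a lysyl hydroxylase, had -1.81 ± 0.49 (adjusted p = 0.0547). With the mouse as a block 5 of the 30 were called, 1 higher and 4 lower, where 11.9% of all genes were called, 9.17% as higher and 2.73% as lower. Of 10 collagen receptors, Mrc2, an endocytic receptor that takes up collagen, was called higher in the lung (2.29 ± 0.46, adjusted p = 0.0193, edgeR), and no other was called in either model. No synthesis gene was called without the lung of mouse A, no receptor on library sizes without TMM, and none of either list in tumor-rich lung spots against PT. The median log2 fold change was -0.25 over the synthesis genes and -0.29 over the receptors. In the comparisons of spot classes edgeR called no gene of either list, except that without the filter on low counts it called 6 synthesis genes, 5 higher and 1 lower, and 2 receptors, both higher, in tumor-rich against tumor-poor lung spots, where it called 8.94% of all genes.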

How the data were processed

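Raw UMI counts per gene and spot were deposited by the authors without normalization, as Space Ranger 2.0.0 wrote them for probes on mm10 from 4 µm sections. The spelling rule for the members used no measured values, but it and the lists were set with earlier results of these data known. The replicates are 2 animals with 1 section per tissue each. Spots with more than 200 genes were kept (106 removed, all from the PT of mouse A) and summed per section or spot class. Counts were tested by edgeR 4.0.16 in R 4.3.3 (TMM, filterByExpr, quasi-likelihood test, Benjamini-Hochberg over all genes tested, threshold 0.05), with DESeq2 1.42.0 as an alternative. Figures and spot statistics used Python 3.11.15, numpy 2.4.6, scipy 1.17.1, pandas 2.3.3 and matplotlib 3.10.9.

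The rule for named genes was to count every chain, to give all sections for chains with at least 20 CPM in a section, to name every chain called and others where a class is incomplete without them, and to name 10 similar genes per sum. CPM used the UMIs of the kept spots. Spot values used spots with at least 1000 UMIs. Marker lists lacked Hmga1, Sftpb and Actc1, which were not found. Deviations of same-mouse sections from their tissue means had a correlation of -0.293 for lung against PT, and of 0.616 between spot classes of a lung. The pairing comes from the shared animal or section. On simulated counts 99.5% of 200 changed genes were recovered for lung against PT with and without the mouse block (15231 genes). For tumor-rich against tumor-poor lung spots 97.5% were recovered with the block and 0% without (13061 genes). These shares hold for those counts only. On the measured counts edgeR with the block called 0 of 13223 genes in tumor-rich against tumor-poor lung spots. The share of real differences that 2 sections per tissue would recover was not tested. Alternatives were the block, DESeq2, no filter, no TMM, all spots, the 90th percentile for high spots, tumor-rich lung spots alone, thinned spots and each section left out.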

Additional observations from a re-analysis of the deposited data

How the results depend on the processing

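Of the 4 chains called in lung against PT, the count was 11 with the mouse as a replicate block, 10 without the filter on low counts (2022 of 19314 genes), 9 by DESeq2, 1 on library sizes without TMM (Col13a1; 328 of 15267 genes), 0 in tumor-rich lung spots alone, and 4 to 16 when 1 section was left out (16 of 43 without the PT of mouse A, where 6604 of 19140 genes were called, a like share, 7 of 39 without that of mouse B with 1251 of 15544 genes, 4 of 42 without the lung of mouse A with 883 of 19140, and 10 of 42 without that of mouse B with 2519 of 19134). A lone section of a tissue is assumed to vary like the other tissue. Omitting TMM moved the median log2 fold change of all genes from -0.00459 to -0.306. On library sizes alone the log2 fold changes were 2.69 for Col3a1, 1.67 for Col1a2 and 2.78 for Col23a1 (adjusted p = 0.0812, 0.138 and 0.144, edgeR). Pairing the sections across the animals, tried after seeing the data, gave 12 chains and 2565 of all genes against 11 and 1817. For tumor-rich lung spots the 0 chains became 9 without the filter and 4 by DESeq2, and without the replicate block there were 0. With 1 lung left out no test is possible, and each chain named there except Col4a2 had the same direction in either lung alone. For fibroblast-rich spots the 0 chains became 3 without the filter (149 of 19305 genes) and 1 by DESeq2, with 0 to 4 when 1 section was left out (4 without the lung of mouse B), and 0 without the replicate block. For endothelial-rich spots every setting gave 0 chains. On TMM-adjusted library sizes the other chains were at 626.9 and 529 CPM in the PT and 371 and 526 CPM in the lung of mice A and B. After thinning to 1000 UMIs, rho of fibrillar with type IV chains was 0.0111 in the PT of mouse A and -0.0111 in that of mouse B, where rho of Col1a1 with Col3a1 was -0.0332, and rho of fibrillar chains with smooth muscle markers was -0.0134 in the PT of mouse A; the cause was not tested. Chains near the background of the PT of mouse B are limited by it.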
